A study of Mus musculus with 12 samples.

Results

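The response of the liver to methionine restriction was compared between mice homozygous for the Lmna G609G knock-in allele (KI) and wild-type mice (WT). The measure is the diet by genotype interaction, the difference between KI_MR and KI_CD minus the difference between WT_MR and WT_CD, taken gene by gene on log2 intensities. All 12 of the 12 liver samples of the series enter it. KI_MR mice carried Lmna G609G/G609G and ate the methionine-restricted diet, and KI_CD mice had the same genotype on the control diet. WT_MR and WT_CD mice were wild type on the restricted and on the control diet, and each of the 4 groups had 3 arrays. All were male C57BL/6N mice of 110 days that had started the diets at 7 weeks of age and were taken after 6 hours without food. Whether each array came from its own animal is not in the labels, so the p-values measure the spread between samples, which may be technical.

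Lamins A and C, both made from Lmna, form a meshwork under the inner nuclear membrane, and the mouse G609G allele causes production of progerin, the truncated lamin A of Hutchinson-Gilford progeria. Methionine is an essential amino acid and the source of S-adenosylmethionine, the main methyl donor of the cell, and of cysteine through transsulfuration. A diet poor in methionine is known in mouse liver for switching on genes of the amino acid response, which ATF4 drives, and for inducing the hormone FGF21. A difference in diet response between genotypes can come about in several ways. The knock-in can start from another level on the control diet, the wild type can respond where the knock-in does not, or the reverse. The 4 group levels were therefore given for each gene beside the interaction.

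Of 12 hepatocyte-defining genes, 10 had a probe set of their own, and their mean level lay between 13.24 and 13.51 on the log2 scale in the 12 arrays, far above the lower quartile of all gene levels (5.55). Array medians ran from 82 to 90 intensity units. Each array correlated with the other arrays of its group at a mean r of 0.9855 to 0.9942 across genes, the lowest being KI_CD replicate 1. That array also had the highest mean level of 21 cell cycle genes, at 7.32 against 6.18 to 6.56 in the other 11, and of 12 stellate cell and fibroblast markers, at 8.78 against 7.94 to 8.33. Another KI array, KI_MR replicate 2, stood out for 11 adipose, pancreas and muscle markers at 7.69, against 6.15 to 6.58 in the others. Some of the results that lean on KI_CD replicate 1 are given with and without it, and all others include it.

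No gene passed the interaction test. Of 19938 genes, 0 (0%) had an adjusted p under 0.05 by limma, and the smallest adjusted p was 0.293. An unadjusted p under 0.05 was found for 824 genes (4.13%), below the share of 0.05 expected if no gene had an interaction. Of these, 217 (1.09%) had a positive interaction, meaning a KI response above the WT response, and 607 (3.04%) a negative one, a split that became 387 positive and 520 negative after quantile normalization. The interaction sums the error of 4 groups, and its median SE was 0.14 (log2), against 0.10 for the diet response of a single genotype. Its median over all genes was -0.01, and 122 genes had an interaction beyond 1 in size, 60 of them at an unadjusted p under 0.05. In bulk RNA, fewer cells of a type and less RNA per cell cannot be told apart. The genes described below therefore carry large interaction estimates that the adjusted test did not call, and they are described by their group levels and by the diet and genotype differences that did pass.

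The KI and WT diet responses share no arrays and can be set side by side, but their tests use a common estimate of the spread over all 4 groups. Leaving out a KI array can therefore move the count of WT calls. The test called 35 genes in KI liver (0.176% of genes, 12 higher and 23 lower, or 8 and 10 after median centring) and 65 in WT liver (0.326%, 42 higher and 23 lower). By direction these were 0.0602% and 0.115% of genes in KI and 0.211% and 0.115% in WT. The genotypes differed in 16 genes (0.0802%) on the control diet, called the starting difference here, and in 94 (0.471%) on the restricted diet. Leaving out 1 array moved the counts of diet responses to between 7 (without KI_MR replicate 3) and 94 (without KI_CD replicate 1) in KI, and between 17 (without WT_CD replicate 1) and 199 (without KI_CD replicate 1) in WT. Of the 35 genes called in KI, 34 had the same sign in WT, with a median size of 0.90 in KI and 0.55 in WT. Among the 65 genes called in WT, 61 had the same sign in KI, with a median size of 0.46 in KI and 1.30 in WT. Each list was chosen on the response of its own genotype, so these sizes describe the lists and are no test of a difference. Across all genes the KI and WT responses correlated at a Pearson r of 0.453, and at 0.550 without KI_CD replicate 1. Of genes with both responses at an unadjusted p under 0.05, 420 had the same sign and 21 opposite signs.

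**Figure D1:**
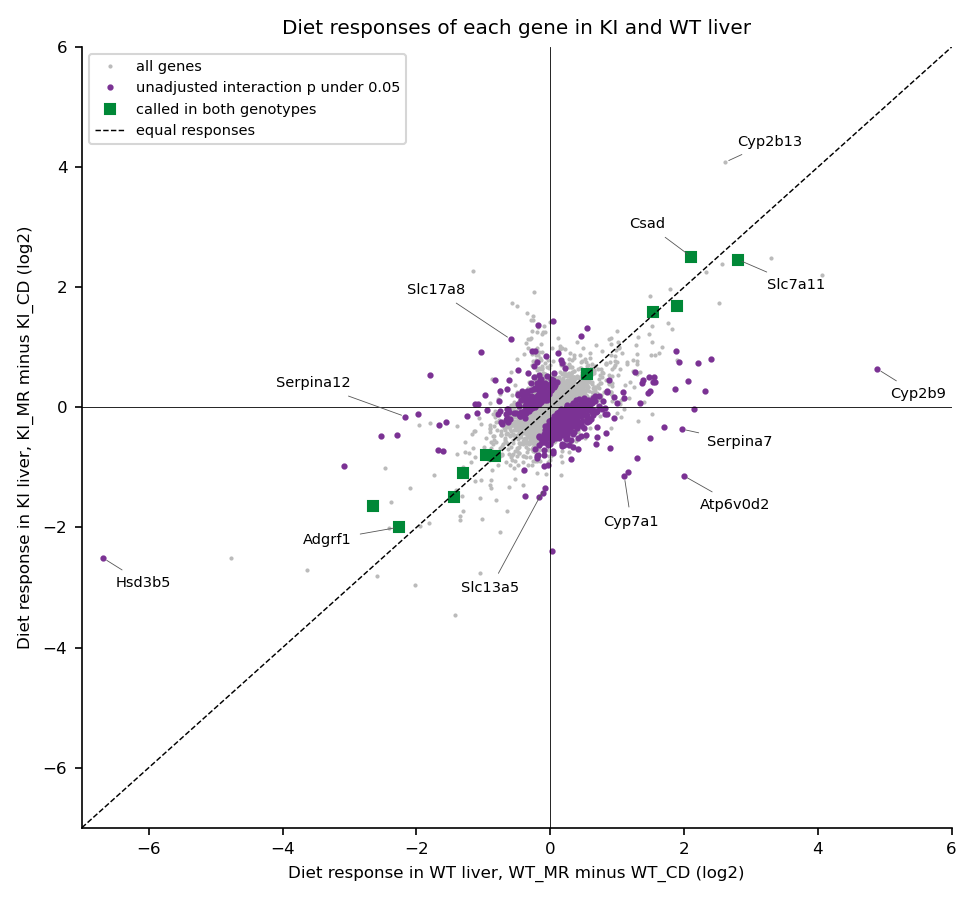
Diet response of 19938 genes in KI liver (vertical, KI_MR minus KI_CD, log2) against WT liver (horizontal, WT_MR minus WT_CD, log2), with genes at an unadjusted interaction p under 0.05 in purple and the 11 genes called in both genotypes as green squares. Of the green squares, 10 lie within 0.40 of the dashed line of equal responses and C6 lies 1.01 from it, while Cyp2b9, Serpina7, Serpina12 and Hsd3b5 lie far from it with the larger response in WT, and Slc13a5 with the larger response in KI.

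To sort shifted starting levels from responses of a single genotype, each gene was asked whether a single group stood apart, meaning that both differences involving that group were at least 2 times both differences that did not. Among the 824 genes at an unadjusted interaction p under 0.05, KI_MR stood apart in 119 (14.4%), against 7.7% of all genes. KI_CD stood apart in 48 (5.83%), against 4.83% of all genes. For WT_MR the count was 97 (11.8%), against 6.01%, and for WT_CD it was 86 (10.4%), against 6.72%. No single group stood apart in the other 474. Without KI_CD replicate 1 there were 799 such genes, with KI_MR apart in 115, KI_CD in 59, WT_MR in 88 and WT_CD in 51. A gene in which a single group stands apart has an interaction by construction. Higher shares among genes chosen on the interaction p than among all genes therefore follow from the choice and are no result. No test of the differences between these shares was made.

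**Figure D2:**
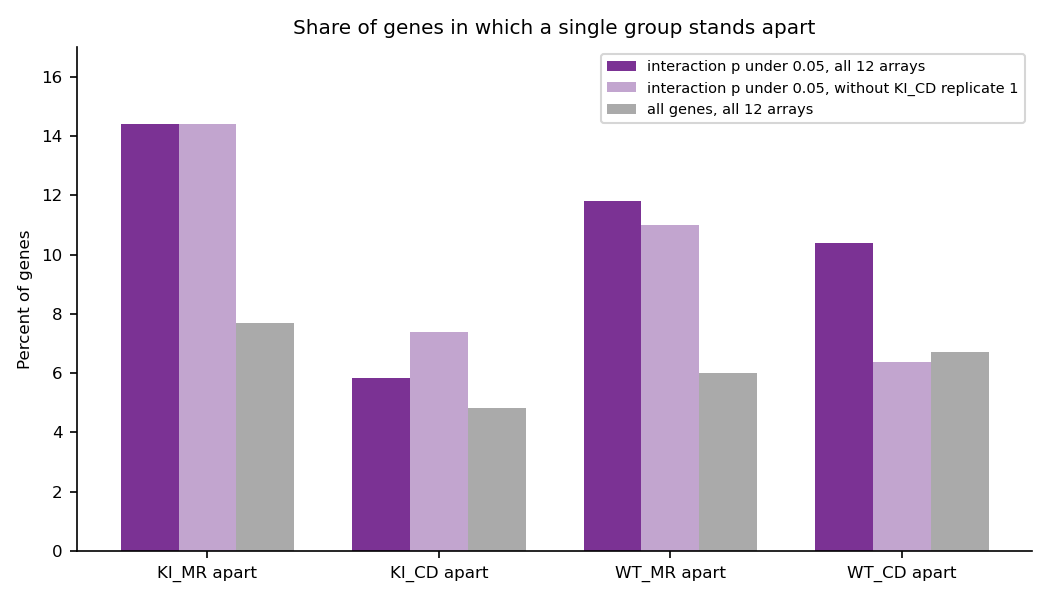
Percent of genes (vertical) in which the group named on the horizontal axis stands apart from the other 3, among genes at an unadjusted interaction p under 0.05 with all 12 arrays (dark purple) and without KI_CD replicate 1 (light purple), and among all genes (grey). KI_MR has the highest share, 14.4% in both purple bars, and the WT_CD share is 10.4% with all arrays and 6.38% without KI_CD replicate 1.

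**Figure D3:**
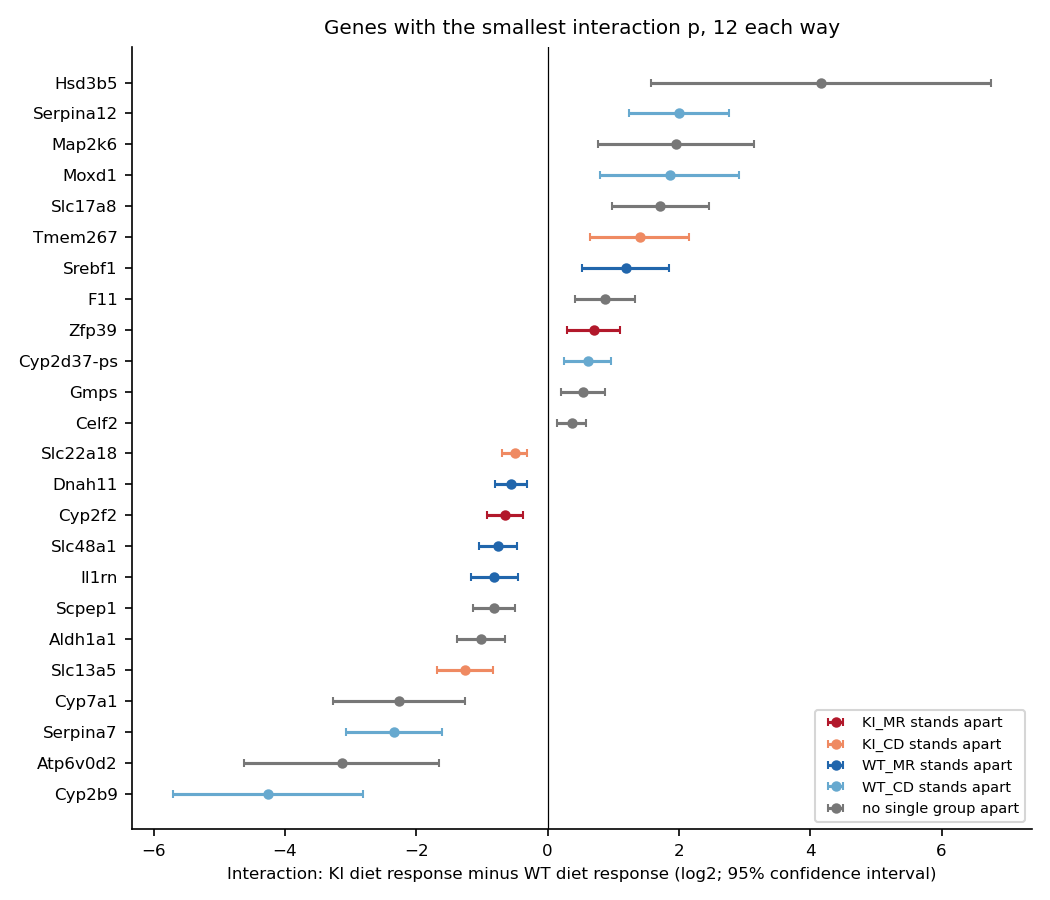
Interaction (horizontal, log2) with its 95% confidence interval from limma, not adjusted for the number of genes, for the genes with the smallest interaction p, 12 in each direction, coloured by the group that stands apart. Cyp2b9 has the most negative estimate at -4.25 and Hsd3b5 the most positive at 4.17, and the interval of Hsd3b5 is the widest.

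Several of the widest gaps between the genotypes' responses came from genes in which wild-type mice on the control diet stood alone. In these genes both the restricted diet in WT and the knock-in on the control diet went with a level close to that of KI_MR. Cyp2b9, a cytochrome P450 of female-predominant expression in mouse liver, had log2 levels of 13.36, 13.37 and 13.56 in KI_MR and 12.98, 12.43 and 12.97 in KI_CD. Its levels were 13.13, 13.22 and 12.94 in WT_MR and 7.03, 9.58 and 7.99 in WT_CD. The 3 WT_CD arrays lay far below the other 9, which ran from 12.43 to 13.56. Cyp2b9 changed by 0.64 ± 0.47 (SE) in KI (adjusted p = 0.876) and rose by 4.89 ± 0.47, 29.7-fold, in WT (adjusted p = 0.00135). On the control diet it was 24.1-fold higher in KI than in WT (log2 4.59 ± 0.47, adjusted p = 0.00653). KI_MR minus WT_MR was 0.34 ± 0.47 (adjusted p = 0.744). The interaction was -4.25 ± 0.66, with an adjusted p of 0.293, and of 0.00041 without WT_CD replicate 2, the highest of the 3 WT_CD arrays. No other left-out array or change of processing brought this adjusted p under 0.05.

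Serpina7, which encodes thyroxine-binding globulin, the plasma carrier of thyroid hormone, followed the same pattern. It read 11.37, 11.29 and 11.07 in KI_MR, 11.76, 12.05 and 11.01 in KI_CD, 10.95, 10.96 and 11.23 in WT_MR, and 9.38, 8.73 and 9.12 in WT_CD. The WT_CD arrays were again the low ones and overlapped none of the others. In KI the diet difference was -0.36 ± 0.24 (adjusted p = 0.841), whereas in WT the gene rose by 1.97 ± 0.24 (3.91-fold, adjusted p = 0.00556). The starting difference was 2.53 ± 0.24 (adjusted p = 0.00634). Its interaction of -2.33 ± 0.33 had an adjusted p of 0.293, and of 0.0131 without KI_CD replicate 3. In no other fit was this adjusted p under 0.05.

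Serpina12, encoding the secreted serpin vaspin, ran the other way. Its levels were 5.73, 5.83 and 5.36 in KI_MR, 5.52, 5.98 and 5.88 in KI_CD, 5.78, 5.83 and 6.15 in WT_MR, and 8.12, 7.50 and 8.63 in WT_CD. WT_CD was thus the single high group. The gene changed by -0.16 ± 0.24 in KI (adjusted p = 0.999) and fell by 2.16 in WT (log2, SE 0.24, adjusted p = 0.00383). It was lower in KI_CD than in WT_CD by 2.29 (log2, adjusted p = 0.00653), and the interaction was 2.01 ± 0.35. Moxd1, a copper monooxygenase related to dopamine beta-hydroxylase, was at 7.59, 6.09 and 7.89 in WT_CD and between 4.95 and 5.32 in the 9 other arrays, under the lower quartile of gene levels, and it fell by 1.97 in WT (log2, adjusted p = 0.0413) with an interaction of 1.86 ± 0.48. Without WT_CD replicate 2, the lowest of the WT_CD arrays for both genes, the adjusted interaction p was 0.0424 for Serpina12 and 0.00018 for Moxd1.

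Cyp4a14, a fatty acid omega-hydroxylase and a target of the nuclear receptor PPARA, stood at 12.93, 12.92 and 13.12 in KI_MR and 12.77, 12.62 and 12.27 in KI_CD. In WT it read 12.70, 13.25 and 12.98 on the restricted diet and 10.69, 10.46 and 11.61 on the control diet, where it was lower than in all other arrays. Restriction raised it 4.16-fold in WT (adjusted p = 0.00686), and the KI difference was 0.43 ± 0.26 (adjusted p = 0.806). The KI_MR arrays of Cyp4a14 all lay above its KI_CD arrays. Members of the Cyp4a and Cyp2b families are close in sequence, and probes of one may take up signal of another. The major urinary protein gene Mup21 was at 9.89, 9.52 and 9.75 in WT_CD and between 5.95 and 8.08 in the other 9 arrays. It fell by 3.09 in WT (log2, SE 0.46, adjusted p = 0.0177), with a KI difference of -0.98 ± 0.46 (adjusted p = 0.665). Cth, cystathionine gamma-lyase of the transsulfuration pathway, averaged 11.96 in KI_MR, 12.09 in KI_CD, 11.85 in WT_MR and 11.31 in WT_CD, and neither diet response passed.

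**Figure D4:**
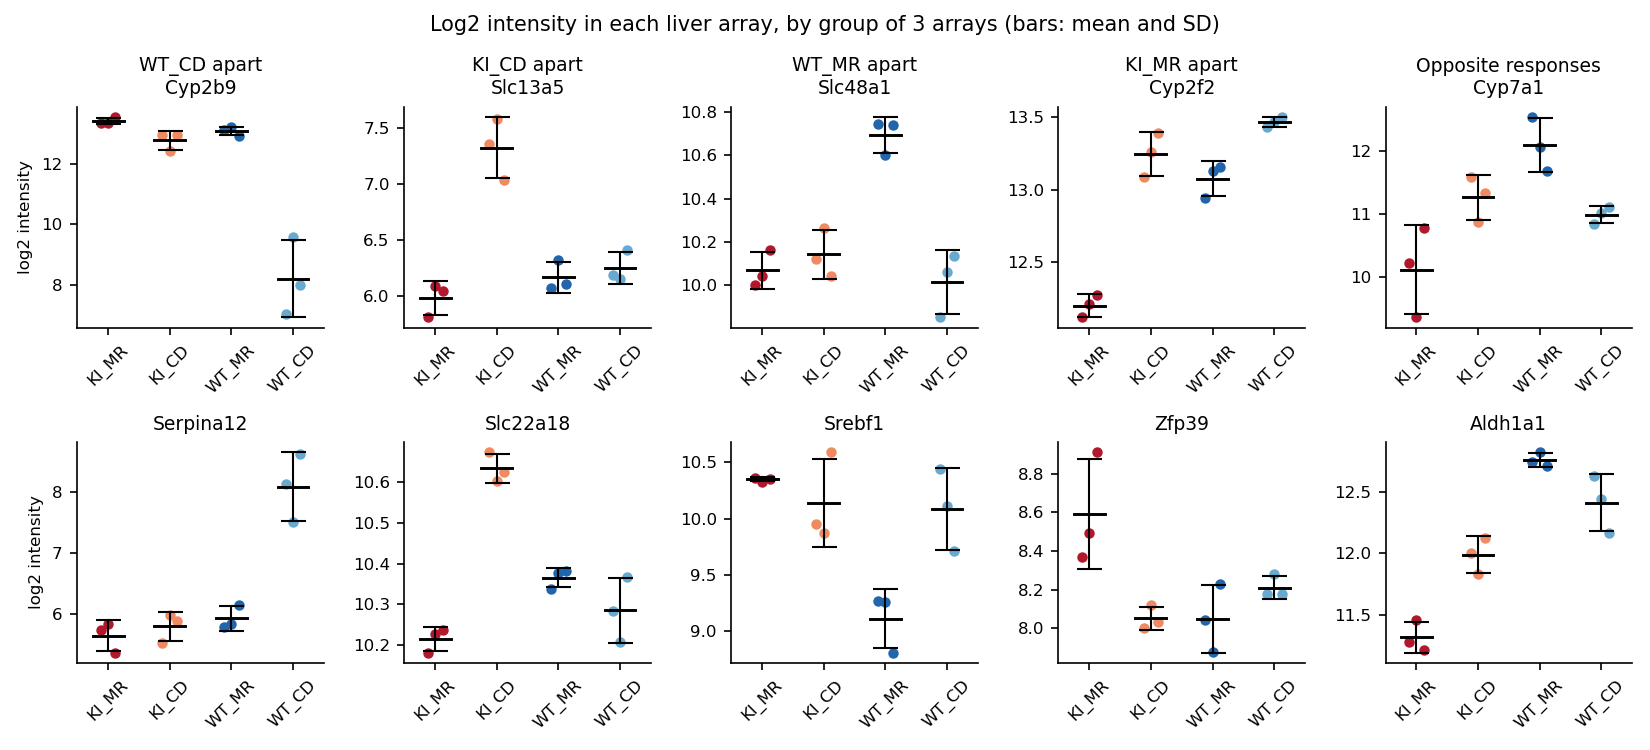
Log2 intensity (vertical) of 10 genes in each array, with groups of 3 arrays on the horizontal axis, points for arrays and bars for the mean and SD. Columns hold genes in which WT_CD, KI_CD, WT_MR or KI_MR stands apart and genes with opposite responses, and in each of the first 4 columns the named group is the one away from the other 3.

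Among genes in which KI_CD stood apart, Slc13a5 had the smallest interaction p. It encodes the plasma membrane citrate transporter of hepatocytes. Its log2 levels were 5.81, 6.09 and 6.04 in KI_MR, 7.36, 7.58 and 7.03 in KI_CD, 6.07, 6.32 and 6.11 in WT_MR, and 6.19, 6.15 and 6.41 in WT_CD. The 3 KI_CD arrays were above the other 9. On the control diet it was 2.10-fold higher in KI than in WT (adjusted p = 0.0176). With restriction it fell by 1.34 in KI (log2, SE 0.14, adjusted p = 0.00414), and the WT difference was -0.08 ± 0.14 (adjusted p = 0.992). The interaction was -1.26 ± 0.19 (95% interval -1.69 to -0.83) and -1.24 without KI_CD replicate 1.

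Slc22a18, an organic cation transporter-like gene in an imprinted region, also had its highest level in KI_CD, with smaller differences. It read 10.18, 10.23 and 10.24 in KI_MR, 10.67, 10.60 and 10.63 in KI_CD, 10.34, 10.38 and 10.38 in WT_MR, and 10.28, 10.21 and 10.37 in WT_CD. It fell by 0.42 in KI (log2, SE 0.06, adjusted p = 0.0233), while its starting difference of 0.35 ± 0.06 missed the threshold (adjusted p = 0.0637). Tmem267 had low levels in KI_CD, at 6.34, 6.38 and 6.55, against 7.58 to 8.29 in KI_MR, 7.34 to 7.74 in WT_MR and 7.02 to 8.03 in WT_CD, with no difference past the threshold. Socs3, an inhibitor of cytokine signalling, averaged 7.66 in KI_MR, 8.18 in KI_CD, 7.80 in WT_MR and 7.56 in WT_CD (interaction -0.77 ± 0.26). A second Socs3 probe set of lower level gave an interaction of -0.12.

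In a further set WT_MR stood apart, with the smallest interaction p in Slc48a1, which encodes the heme transporter HRG1. It averaged 10.07 in KI_MR, with no array above 10.16, and read 10.12, 10.26 and 10.04 in KI_CD, 10.74, 10.60 and 10.74 in WT_MR, and 9.85, 10.06 and 10.13 in WT_CD. The WT_MR arrays were above all others, and the remaining 3 groups overlapped. The KI difference was -0.07 ± 0.09 (adjusted p = 0.995), and in WT the gene rose by 0.68 ± 0.09 (adjusted p = 0.00975). On the restricted diet it was lower in KI than in WT by 0.63 (log2, adjusted p = 0.0222), with an interaction of -0.76 ± 0.13. Dnah11, an axonemal dynein heavy chain of low level in these arrays, had 5.70, 5.61 and 5.70 in KI_MR, 5.46, 5.55 and 5.46 in KI_CD, 6.36, 6.41 and 6.13 in WT_MR, and 5.58, 5.58 and 5.52 in WT_CD. It rose in WT by 0.73 ± 0.08 (adjusted p = 0.00259).

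Srebf1, the transcription factor of fatty acid synthesis genes, had levels of 10.36, 10.33 and 10.35 in KI_MR and 9.96, 9.87 and 10.59 in KI_CD. In WT it read 9.26, 9.25 and 8.80 on the restricted diet and 10.44, 10.11 and 9.71 on the control diet. WT_MR was the low group, and the other 3 overlapped. Its diet difference was 0.21 ± 0.21 in KI (adjusted p = 0.971) and -0.98 ± 0.21 in WT (adjusted p = 0.101). On the restricted diet Srebf1 was 2.37-fold higher in KI than in WT (adjusted p = 0.0401), and on the control diet the difference was 0.05 ± 0.21 (adjusted p = 0.927). Il1rn, the secreted antagonist of the interleukin 1 receptor, averaged 7.12 in KI_MR, 7.32 in KI_CD, 7.69 in WT_MR and 7.08 in WT_CD, and its WT response of 0.61 ± 0.11 missed the threshold (adjusted p = 0.0567). The mitochondrial chaperonin pair Hspd1 and Hspe1, which share a bidirectional promoter, had interactions of -0.38 ± 0.13 and -0.51 ± 0.18. Hspd1 levels were 11.06 to 11.14 in KI_MR, 11.03 to 11.30 in KI_CD, 11.55 to 11.56 in WT_MR and 11.06 to 11.34 in WT_CD, so that WT_MR lay above the other groups.

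In the reverse pattern KI_MR stood apart. Cyp2f2, a cytochrome P450 of periportal hepatocytes known for activating naphthalene, read 12.12, 12.21 and 12.27 in KI_MR, 13.09, 13.26 and 13.39 in KI_CD, 12.94, 13.13 and 13.16 in WT_MR, and 13.43, 13.47 and 13.50 in WT_CD. Every KI_MR array was below the other 9. It fell by 1.04 in KI (log2, SE 0.09, adjusted p = 0.0012) and differed by -0.39 ± 0.09 in WT (adjusted p = 0.117). The WT_MR arrays also lay below all WT_CD arrays, so the direction was the same in both genotypes and the difference larger in KI. On the restricted diet Cyp2f2 was lower in KI than in WT by 0.87 (log2, adjusted p = 0.00486), and the interaction was -0.65 ± 0.12. Zfp39, a zinc finger gene, read 8.37, 8.49 and 8.91 in KI_MR and between 7.88 and 8.28 in the other 9 arrays, with no difference past the threshold.

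Bhmt, which remethylates homocysteine to methionine with betaine, had 10.66, 12.29 and 11.32 in KI_MR, 13.06, 12.80 and 12.70 in KI_CD, 12.74, 12.45 and 12.50 in WT_MR, and 12.82, 12.94 and 12.26 in WT_CD. The KI_MR arrays were the lowest on average and the most scattered. Its diet difference was -1.43 ± 0.33 in KI (adjusted p = 0.159) and -0.11 ± 0.33 in WT. The interaction of -1.32 ± 0.46 was -1.40 and -0.24 in the other Bhmt probe sets. Gamt, the methyltransferase that makes creatine and uses S-adenosylmethionine, averaged 11.79 in KI_MR, 12.22 in KI_CD, 12.31 in WT_MR and 12.37 in WT_CD. Cpt1a, which admits long-chain fatty acids to mitochondria, averaged 11.70 in KI_MR, 12.28 in KI_CD, 12.11 in WT_MR and 12.23 in WT_CD. For both genes neither diet response passed.

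Of the 21 genes with opposite responses at an unadjusted p under 0.05 in each genotype, the 4 with the smallest interaction p were Aldh1a1, Slc17a8, Cyp7a1 and Atp6v0d2. Aldh1a1, a retinaldehyde dehydrogenase, read 11.28, 11.46 and 11.21 in KI_MR, 12.01, 11.83 and 12.13 in KI_CD, 12.74, 12.82 and 12.71 in WT_MR, and 12.62, 12.44 and 12.16 in WT_CD. The 4 groups did not overlap, and KI_MR was the lowest and WT_MR the highest. The diet difference was -0.67 ± 0.12 in KI (adjusted p = 0.0661) and 0.34 ± 0.12 in WT (adjusted p = 0.379). On the restricted diet Aldh1a1 was lower in KI than in WT by 1.43 (log2, adjusted p = 0.000957), against a starting difference of -0.42 ± 0.12 (adjusted p = 0.227).

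Cyp7a1, which catalyses the limiting step from cholesterol to bile acids, had levels of 10.22, 9.35 and 10.77 in KI_MR, 11.59, 10.87 and 11.33 in KI_CD, 12.54, 12.07 and 11.68 in WT_MR, and 10.83, 11.02 and 11.12 in WT_CD. On the restricted diet the KI arrays were all below the WT arrays, and on the control diet the genotypes overlapped. The diet difference was -1.15 ± 0.32 in KI (adjusted p = 0.272) and 1.11 ± 0.32 in WT (adjusted p = 0.256), neither past the threshold. The genotype difference on the restricted diet was -1.98 ± 0.32 (adjusted p = 0.0314), and the interaction was -2.26 ± 0.46. Atp6v0d2, a subunit of the vacuolar proton pump, read 6.81, 7.12 and 6.81 in KI_MR, 9.07, 7.64 and 7.43 in KI_CD, 8.99, 7.24 and 7.45 in WT_MR, and 5.58, 6.30 and 5.81 in WT_CD. Slc17a8, a vesicular glutamate transporter, averaged 7.73 in KI_MR, 6.60 in KI_CD, 7.08 in WT_MR and 7.66 in WT_CD. Neither gene had a diet response past the threshold.

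In other genes no single group stood apart. F11, coagulation factor XI, read 8.39, 8.78 and 8.48 in KI_MR, 9.43, 9.04 and 9.36 in KI_CD, 8.18, 7.99 and 8.44 in WT_MR, and 9.95, 9.84 and 9.65 in WT_CD. Its difference was -0.73 ± 0.15 in KI (adjusted p = 0.103), and it fell by 1.61 in WT (log2, SE 0.15, adjusted p = 0.00135). Levels on the restricted diet overlapped between genotypes. Hsd3b5, a steroid dehydrogenase of male mouse liver, had 6.30, 5.75 and 5.0 in KI_MR, 5.58, 9.43 and 9.58 in KI_CD, 5.17, 5.25 and 5.52 in WT_MR, and 12.22, 11.51 and 12.25 in WT_CD. KI_CD replicate 1 was at the level of the restricted groups while the other KI_CD arrays lay between those groups and WT_CD. Hsd3b5 fell by 6.68 in WT (log2, SE 0.83, adjusted p = 0.00686), and the interaction was 4.17 ± 1.18, or 2.86 without KI_CD replicate 1. Its WT_MR mean was under the lower quartile of gene levels. Scpep1, a lysosomal carboxypeptidase, rose by 0.78 ± 0.10 in WT (adjusted p = 0.00935) with a KI difference of -0.03 ± 0.10, and its interaction was -0.81 ± 0.15.

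Genes can be chosen without the interaction through the average of the KI and WT diet responses, whose estimate is uncorrelated with it in this balanced design, although both use the same estimate of the spread. That average called 241 genes (1.21% of genes). Of these, 239 had responses of the same sign in KI and WT, with a median size of 0.54 in KI and 0.60 in WT. The response was larger in KI in 99 and larger in WT in 142. At an unadjusted interaction p under 0.05 there were 49 of the 241 (20.3%, against 4.13% of all genes), the larger response being that of KI in 12 and of WT in 37. These counts depended on single arrays: without KI_MR replicate 2 the counts were 47 for KI and 30 for WT among 274 called genes, and without KI_CD replicate 1 they were 51 for KI and 56 for WT among 470. Of the fits that left out an array, only that without KI_MR replicate 2 had the larger count for KI. Such fits are not balanced, so in them the average and the interaction are no longer uncorrelated. The average genotype difference called 561 genes (2.81%), of which 95 (16.9%) had an unadjusted interaction p under 0.05. A small estimate of the spread favours both a call on an average and a small interaction p. The shares of 20.3% and 16.9% can therefore exceed the 4.13% of all genes through the choice alone. Cux2, a transcription factor known from female mouse liver, was among the genes with the larger response in KI. It read 8.90, 8.25 and 8.64 in KI_MR, 7.52, 7.38 and 7.31 in KI_CD, 7.94, 7.64 and 7.55 in WT_MR, and 7.19, 7.25 and 7.31 in WT_CD, and it rose 2.29-fold in KI (adjusted p = 0.0137).

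The genes called in both genotypes numbered 11, or 31.4% of those called in KI and 16.9% of those called in WT. They were Adgrf1, Aldh1l2, Bhlhe41, C6, Clec2h, Csad, Itih5, Mei4, Olfm3, Slc7a11 and Vldlr, and C6 alone had an unadjusted interaction p under 0.05 (0.0223). Csad, which makes taurine from cysteine products, rose 5.68-fold in KI (adjusted p = 0.0012) and 4.31-fold in WT (adjusted p = 0.00135). Its levels were 10.43, 10.32 and 10.73 in KI_MR, 7.77, 8.49 and 7.69 in KI_CD, 10.85, 11.20 and 10.71 in WT_MR, and 8.80, 8.73 and 8.91 in WT_CD. The restricted arrays lay above the control arrays in both genotypes, and the interaction of 0.40 had an interval of -0.22 to 1.02. Aldh1l2, the mitochondrial formyltetrahydrofolate dehydrogenase, rose 3.02-fold in KI (adjusted p = 0.00471) and 2.91-fold in WT (adjusted p = 0.00326). For Aldh1l2 the interaction was 0.05, with an interval of -0.47 to 0.58.

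The gene lists described from here on were chosen with earlier results of these data known. Their shares beside those of all genes therefore describe the lists and are no independent test. Among genes of the amino acid response, 4 of 27 members rose in KI (Slc7a11, Aldh1l2, Vldlr and Adm2), against 0.0602% of all genes, and 3 in WT (Slc7a11, Aldh1l2 and Vldlr), against 0.211%. Of these members, 28 being listed, 0 had a positive and 4 a negative interaction at an unadjusted p under 0.05 (14.8%, against 4.13% of all genes), namely Fgf21, Cth, Stbd1 and Shmt2. The list's median response was 0.39 in KI and 0.59 in WT, and its median interaction of -0.21 was -0.41 without KI_CD replicate 3 and turned to 0.04 without KI_CD replicate 1, an array with a high level of this list at 8.81 against 7.97 and 7.89 in the other KI_CD arrays. Asns, asparagine synthetase, read 11.97, 11.99 and 11.98 in KI_MR, 11.11, 8.57 and 9.11 in KI_CD, 12.10, 11.63 and 11.79 in WT_MR, and 9.10, 9.08 and 9.63 in WT_CD. Here KI_CD replicate 1 was near the restricted arrays, and the interaction was -0.19 with it and 0.56 without it. Slc7a11, the cystine import subunit xCT, had 7.29, 7.85 and 7.81 in KI_MR, 5.81, 4.91 and 4.86 in KI_CD, 8.46, 6.97 and 8.41 in WT_MR, and 5.21, 5.25 and 4.95 in WT_CD. It rose by 2.46 ± 0.37 in KI (adjusted p = 0.0317) and by 2.81 ± 0.37 in WT (adjusted p = 0.00935), both control groups averaging under the lower quartile of gene levels.

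Fgf21, the hepatic hormone of nutrient stress, had another pattern. It read 6.87, 6.44 and 6.11 in KI_MR, 7.97, 6.25 and 6.17 in KI_CD, 7.81, 8.81 and 7.76 in WT_MR, and 6.48, 6.32 and 6.48 in WT_CD. The WT_MR arrays were above the other groups except for KI_CD replicate 1, which reached 7.97. The diet difference was -0.32 ± 0.43 in KI (adjusted p = 0.997) and 1.70 ± 0.43 in WT (adjusted p = 0.173), and the interaction was -2.02 ± 0.61, or -1.44 without KI_CD replicate 1. Neither response of Fgf21 passed the threshold.

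The promoters of Asns, Slc7a11 and Fgf21 are shown because these genes share a list but differ in their group levels. Each window runs from 250 bases before to 50 bases after the gene start in RefSeq on GRCm38.p6, read 5′ to 3′ on the gene's strand, with capitals marking the core of the amino acid response element, TGATGNAA on either strand. No other motif was searched. All 3 genes lie on the minus strand, with windows at chr6:7693160-7693459 for Asns, chr3:50443564-50443863 for Slc7a11 and chr7:45615441-45615740 for Fgf21.
Asns: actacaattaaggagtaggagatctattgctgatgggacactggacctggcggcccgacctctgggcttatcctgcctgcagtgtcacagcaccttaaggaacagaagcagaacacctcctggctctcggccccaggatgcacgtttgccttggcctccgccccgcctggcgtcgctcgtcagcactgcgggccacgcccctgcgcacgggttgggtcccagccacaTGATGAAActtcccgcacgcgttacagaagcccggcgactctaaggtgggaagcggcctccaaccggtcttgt
Slc7a11: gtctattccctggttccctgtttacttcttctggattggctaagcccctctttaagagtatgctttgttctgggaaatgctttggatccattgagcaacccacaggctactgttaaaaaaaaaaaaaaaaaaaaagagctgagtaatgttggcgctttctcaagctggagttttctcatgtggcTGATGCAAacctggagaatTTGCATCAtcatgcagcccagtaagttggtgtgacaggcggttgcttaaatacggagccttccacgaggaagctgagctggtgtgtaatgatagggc
Fgf21: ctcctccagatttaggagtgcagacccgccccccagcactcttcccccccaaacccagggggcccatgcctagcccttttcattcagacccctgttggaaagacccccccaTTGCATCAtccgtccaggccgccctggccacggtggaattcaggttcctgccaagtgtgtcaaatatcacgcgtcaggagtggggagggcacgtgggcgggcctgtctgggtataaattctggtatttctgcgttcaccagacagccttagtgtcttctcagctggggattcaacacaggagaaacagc
Asns holds 1 match, whose first base is at -23 from the gene start, Slc7a11 holds 2, at -66 and -47, and Fgf21 holds 1, at -139. Of 32851 promoter windows of this length, 1304 (3.97%) hold a match. The windows of Stbd1 and Shmt2 held none of these letters. The matches are a description of the letters in these windows.

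Glutathione and NRF2 targets, which defend against oxidants and electrophiles, had a median diet response of 0.17 in KI and 0.57 in WT. Of 17 measured members of 20, 0 had a positive and 5 a negative interaction at an unadjusted p under 0.05 (29.4%, against 4.13% of all genes), the same number without KI_CD replicate 1. The 5 were Nqo1, Gsta4, Abcc4, Gsr and Gss. The list's median interaction was -0.35, or -0.18 without KI_CD replicate 1, against -0.01 over all genes. Nqo1, a quinone reductase, read 7.71, 6.95 and 7.24 in KI_MR, 7.18, 5.88 and 6.61 in KI_CD, 7.66, 7.70 and 7.94 in WT_MR, and 5.64, 5.58 and 5.43 in WT_CD. The WT_CD arrays were lowest, their mean being under the lower quartile of gene levels, and KI_CD overlapped KI_MR. Nqo1 rose 4.64-fold in WT (adjusted p = 0.00686), and the KI difference was 0.74 ± 0.27 (adjusted p = 0.478). Gsta4, a glutathione transferase for lipid aldehydes, had 11.24, 10.18 and 11.08 in KI_MR, 11.12, 9.73 and 10.73 in KI_CD, 11.30, 11.44 and 11.54 in WT_MR, and 9.62, 9.62 and 9.45 in WT_CD. It rose in WT by 1.86 ± 0.33 (adjusted p = 0.0424).

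Abcc4, an export pump for conjugates, rose 2.80-fold in WT (adjusted p = 0.0156). It averaged 7.53 in KI_MR, 7.26 in KI_CD, 8.58 in WT_MR and 7.09 in WT_CD. Gsr, glutathione reductase, rose in WT by 0.57 ± 0.09 (adjusted p = 0.027), and its KI difference was 0.12 ± 0.09 (adjusted p = 0.873). In KI_CD replicate 1 the list averaged 9.47, against 8.88 and 9.04 in the other KI_CD arrays. In KI 1 member of the list rose, Slc7a11, against 0.0602% of all genes, and in WT 5 did, Slc7a11 among them, against 0.211%.

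Male-biased genes, kept high in male mouse liver by pulsatile growth hormone, had the most positive median interaction of the lists described. Of 17 measured members of 20, 7 had a positive and 0 a negative interaction at an unadjusted p under 0.05 (41.2%, against 4.13% of all genes). Among the 7 were Serpina12, Moxd1, Hsd3b5 and Mup21, described above, and the list was chosen with earlier results of these data known. Median diet responses were -0.99 in KI and -1.97 in WT, and 1 member fell in KI (C6) and 6 in WT, against 0.115% of all genes in each. The median genotype difference was -0.65 between KI_MR and WT_MR and -2.08 between KI_CD and WT_CD. The median interaction was 0.99, or 0.61 without KI_CD replicate 1, in which the list averaged 7.50 against 8.90 and 8.96 in the other KI_CD arrays. By array the list ran from 7.24 to 7.57 in KI_MR, 7.50 to 8.96 in KI_CD, 8.33 to 9.04 in WT_MR and 10.38 to 10.90 in WT_CD. KI_MR held the low end and WT_CD the high end, and KI_CD and WT_MR lay between them apart from KI_CD replicate 1, which fell in the KI_MR range.

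Members differed in where the gap closed. Serpina12 and Moxd1, given above, were close to their restricted level already in KI_CD. Cyp4a12a, a male-specific omega-hydroxylase, had a similar gap between genotypes on both diets. It read 7.26, 5.46 and 5.75 in KI_MR, 7.51, 8.38 and 8.54 in KI_CD, 9.51, 10.19 and 10.31 in WT_MR, and 12.07, 11.73 and 12.05 in WT_CD. KI_MR minus WT_MR was -3.85 ± 0.42 (adjusted p = 0.00701) and KI_CD minus WT_CD was -3.81 ± 0.42 (adjusted p = 0.00722), with an interaction of -0.03 whose interval was -1.34 to 1.28. Slco1a1, an organic anion transporter, had 6.30, 11.19 and 11.11 in KI_CD, so that the sign of its interaction, 0.93 with all arrays and -0.69 without KI_CD replicate 1, rested on that array.

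The female-biased list had the opposite sign in both diet responses. Of 15 measured members of 20, 1 had a positive and 2 a negative interaction at an unadjusted p under 0.05 (20.0%, against 4.13% of all genes). The positive member was Cux2, and the negative ones were Cyp2b9 and Tox. Median responses of the list were 0.64 in KI and 0.93 in WT. Cyp2b13, next of kin to Cyp2b9, read 11.10, 9.68 and 10.84 in KI_MR, 7.58, 5.39 and 6.41 in KI_CD, 7.55, 8.42 and 6.87 in WT_MR, and 4.91, 5.29 and 4.81 in WT_CD. It rose in KI by 4.08 ± 0.54 (adjusted p = 0.0193), the WT difference was 2.61 ± 0.54 (adjusted p = 0.0848), and the interaction was 1.47 ± 0.77. Its WT_CD mean was under the lower quartile of gene levels. Tox, a chromatin protein of this list, had an interaction of -0.54 ± 0.24.

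**Figure D5:**
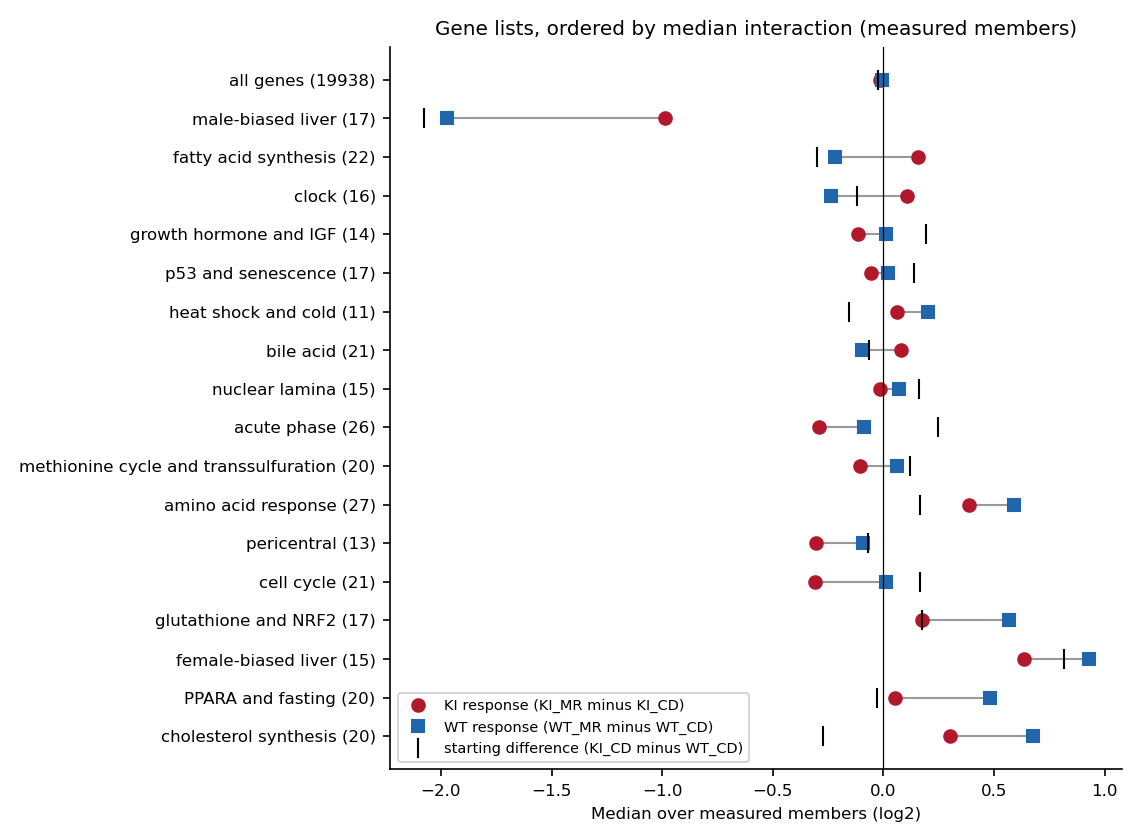
Median over the measured members of each gene list (log2, horizontal) of the diet response in KI (circles), the diet response in WT (squares) and the genotype difference on the control diet (bars), with lists ordered down the page from the most positive to the most negative median interaction below all genes. The male-biased list has medians of -0.99 in KI and -1.97 in WT, and the cholesterol synthesis list 0.30 in KI and 0.68 in WT.

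The lipid gene lists differed in the sign of their median interaction, a difference that was not tested. Cholesterol synthesis genes had median diet responses of 0.30 in KI and 0.68 in WT, and 18 of 20 measured members had an interaction below 0 (10755 of all 19938 genes did). The median was -0.39, from -0.64 without KI_CD replicate 2 to -0.17 without KI_CD replicate 3. At an unadjusted p under 0.05 the list had 0 positive and 3 negative members (15.0%, against 4.13% of all genes). That count ranged from 1 without KI_CD replicate 1 to 10 without KI_CD replicate 2. Hmgcs1, which makes hydroxymethylglutaryl-CoA for the pathway, read 10.49, 10.23 and 10.21 in KI_MR, 10.15, 9.20 and 10.07 in KI_CD, 11.66, 11.69 and 11.15 in WT_MR, and 10.14, 10.50 and 9.43 in WT_CD. WT_MR was the high group, and the others overlapped in part (interaction -0.97 ± 0.41). Ebp, a sterol isomerase, averaged 10.58 in KI_MR, 11.05 in KI_CD, 11.04 in WT_MR and 10.95 in WT_CD. Mvd, mevalonate diphosphate decarboxylase, was lower in KI than in WT on the restricted diet by 1.12 (log2, adjusted p = 0.049).

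Fatty acid synthesis genes had the opposite sign. The median interaction of 22 measured members was 0.43, with 17 above 0 (9162 of all 19938 genes were). That median was 0.79 when WT_CD replicate 3 was left out, 0.22 when WT_CD replicate 2 was, and 0.26 when KI_CD replicate 1 was. The median responses were 0.15 in KI and -0.22 in WT. At an unadjusted p under 0.05 there were 5 positive and 0 negative members (22.7%, against 4.13% of all genes). That count was 2 without KI_CD replicate 1, and it ran from 1 without KI_MR replicate 1 to 10 without KI_CD replicate 3. Besides Srebf1 the 5 members were Thrsp, Pnpla3, Pklr and Mlxipl. Pklr, liver pyruvate kinase, read 12.04, 12.02 and 12.04 in KI_MR, 11.19, 11.66 and 12.46 in KI_CD, 11.66, 11.32 and 11.39 in WT_MR, and 12.48, 12.53 and 11.63 in WT_CD. The restricted arrays did not overlap between genotypes, whereas the control arrays of each genotype spread over nearly 1 log2 unit or more. Thrsp, a regulator of lipogenesis, had an interaction of 2.33 ± 0.91, and 1.77 without KI_CD replicate 1.

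PPARA and fasting genes had an interaction below 0 in 20 of 20 measured members (10755 of all 19938 genes did), with a median of -0.37, or -0.18 without KI_CD replicate 1. In KI_CD replicate 1 the list averaged 10.39, against 9.62 and 9.65 in the other KI_CD arrays. Its median responses were 0.05 in KI and 0.48 in WT. At an unadjusted p under 0.05, 3 members were negative (15.0%, against 4.13% of all genes), namely Fgf21, Cyp4a14 and Cpt1a. Of the list's members, none passed in KI, against 0.176% of all genes. Cyp4a14 alone passed in WT, against 0.326% of all genes. Bile acid genes had a median interaction of -0.07 (0.02 with array weights and 0.14 without KI_MR replicate 2), with 1 positive and 2 negative members of 21 at that p (14.3%, against 4.13% of all genes). Slco1a4, a hepatic uptake transporter on that list, rose in WT by 1.92 ± 0.32 (adjusted p = 0.0333) with a KI difference of 0.76 ± 0.32, and it was 4.39-fold higher in KI than in WT on the control diet (adjusted p = 0.0393). Cyp8b1, the sterol 12-hydroxylase, read 6.32, 9.19 and 7.52 in KI_MR, and its interaction of -0.63 had an interval of -2.52 to 1.26.

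Methionine cycle and transsulfuration genes had median responses of -0.11 in KI and 0.06 in WT. Of 20 measured members of 24, 0 were positive and 3 negative at an unadjusted p under 0.05 (15.0%, against 4.13% of all genes), namely Bhmt, Cth and Gamt. Pericentral genes had 0 positive and 3 negative members of 13 at that p (23.1%, against 4.13% of all genes), namely Rhbg, Slc1a2 and Slc13a3. That count ran from 1 without KI_MR replicate 3 to 5 without KI_MR replicate 2. Rhbg, an ammonium transporter of pericentral hepatocytes, averaged 6.77 in KI_MR, 7.74 in KI_CD, 8.18 in WT_MR and 8.27 in WT_CD, and on the restricted diet it was lower in KI than in WT by 1.42 (log2, adjusted p = 0.0314). The heat shock and cold list held members of both signs. Of 11 measured, 4 were at an unadjusted interaction p under 0.05 (36.4%, against 4.13% of all genes). Rbm3, a cold-inducible RNA-binding protein, read 11.59, 11.43 and 11.53 in KI_MR, 11.20, 11.08 and 11.19 in KI_CD, 10.61, 10.38 and 10.49 in WT_MR, and 10.51, 10.48 and 10.34 in WT_CD. It was higher in KI on both diets, by 1.02 ± 0.08 between KI_MR and WT_MR (adjusted p = 0.000957) and by 0.71 ± 0.08 between KI_CD and WT_CD (adjusted p = 0.00786), with an interaction of 0.32 ± 0.11. Rbm3 and its relative Cirbp, with an interaction of 0.55 ± 0.24, were the 2 positive members at that p, and Hspd1 and Hspe1 the 2 negative ones.

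Each of the following lists had 1 or 2 such members, and 4.13% of all genes had that p. Nuclear lamina genes had 0 positive and 1 negative of 15 (Sun2, -0.59 ± 0.21, or -0.42 without KI_CD replicate 1). Lmna itself averaged 7.85 in KI_MR, 8.0 in KI_CD, 7.55 in WT_MR and 7.37 in WT_CD. Its interaction was -0.32 ± 0.19, or -0.14 without KI_CD replicate 1. A probe set for Lmna does not tell the knock-in transcript from the normal one. Growth hormone and IGF genes had 1 positive (Cux2) and 1 negative (Igfbp2, -0.85 ± 0.21) of 14. Acute phase genes had 0 positive and 2 negative of 26 (Il1rn and Socs3), or 8 at that p without WT_CD replicate 3, an array whose acute phase list averaged 11.77 against 10.48 and 10.60 in the other WT_CD arrays. Lcn2, an iron-scavenging acute phase protein, read 8.16, 10.20 and 9.48 in KI_MR, 12.26, 12.61 and 11.24 in KI_CD, 8.40, 7.72 and 11.12 in WT_MR, and 8.75, 8.94 and 12.72 in WT_CD. The spread within WT exceeded the difference between its diets, and the interval of the Lcn2 interaction was -5.07 to 1.67. Clock genes had 1 positive of 16 (Cry1, 0.61 ± 0.23), and p53 and senescence genes 1 negative of 17 (Gadd45b). Cell cycle genes had 2 negative of 21 (Mcm4 and Ccnd1), or 1 at that p without KI_CD replicate 1. Without that array the list's median interaction went from -0.32 to -0.08, and the Ccnd1 interaction from -2.24 to -1.23.

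Markers of other cell types were looked at for the same contrast. Of 93 marker genes measured on 9 lists, 0 reached an unadjusted interaction p under 0.05 with all arrays and no weights or scaling. Other fits had some. Of the Kupffer cell and macrophage markers, 3 reached it with array weights and 3 without WT_MR replicate 3. Without KI_CD replicate 1, 2 stellate cell and fibroblast markers did. Of the adipose, pancreas and muscle markers, 1 did with quantile normalization and 1 with median centring. The Kupffer cell and macrophage list ran from 8.94 to 9.22 in KI_MR, 8.88 to 9.24 in KI_CD, 8.85 to 9.68 in WT_MR and 9.19 to 9.56 in WT_CD. Its median interaction of 0.12 was -0.10 without WT_MR replicate 2, 0.33 without WT_MR replicate 3 and 0.45 with array weights. The stellate cell and fibroblast list ran from 8.10 to 8.33 in KI_MR, 7.97 to 8.78 in KI_CD, 7.94 to 8.04 in WT_MR and 8.11 to 8.22 in WT_CD. The adipose, pancreas and muscle list, with muscle genes such as Ckm and Acta1, ran from 6.28 to 7.69 in KI_MR, 6.15 to 6.58 in KI_CD, 6.17 to 6.35 in WT_MR and 6.37 to 6.58 in WT_CD. KI_CD replicate 1 was the high array of the stellate list and KI_MR replicate 2 that of the muscle list, and their part in the results was not tested beyond the values given without them.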

How the data were processed

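Liver RNA of 12 samples was measured on Affymetrix Mouse Gene 1.0 ST arrays. The authors deposited 1 linear intensity per probe set and array as whole numbers from 10 to 20042. The sources used here do not give the background correction and scaling, and a scaling that compresses low values could reduce differences near the floor. Intensities were turned to log2 with no further scaling, since array medians already lay between 82 and 90. Of 35512 probe sets, 21789 had a single gene symbol in the platform annotation, 1621 several and 12102 none, and the last 2 kinds were left out. For 999 of the 19938 genes with more than 1 probe set, the one with the highest mean over the 12 arrays was used. Entrez identifiers of 19856 genes matched RefSeq.

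A model of 4 group means was fitted to all genes with limma 3.58.1 in R 4.3.3 (8 residual and 3.14 prior degrees of freedom), with Benjamini-Hochberg adjustment over all genes and a threshold of 0.05, two-sided. The model was also run on simulated data with independent normal errors, equal spread in all groups and effects put into KI_MR alone. That run does not cover unequal group spreads or outlying arrays. The test of 3 arrays against 3 by permutation of one gene could not go below 0.1 and was not used. Intervals at 95% are limma's, and the number of arrays limits their precision. Named genes were the 12 with the smallest interaction p in each direction (leaving out predicted loci, olfactory and vomeronasal receptors, and genes under the lower quartile in every group), the 4 in each direction among genes called on the average diet or genotype difference, the 4 leading opposite responses, and up to 4 members of each list with the smallest interaction p, plus a small set given for its known role. The members, lists and this set were chosen with earlier results of these data known. Alternatives were quantile normalization, median centring, the mean of a gene's probe sets, filters on dim genes, a prior with trend and robust estimation, array weights, the replicate number as a block and leaving out each array. Array weights fitted gene by gene were chosen after seeing the data. Promoter sequences came from RefSeq on GRCm38.p6.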

Additional observations from a re-analysis of the deposited data

How the results depend on the processing

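The interaction called 0 genes with limma under all settings other than leaving out an array, where the count was 0 to 3, the 3 without WT_CD replicate 2 (Cyp2b9, Moxd1 and Serpina12), 1 without KI_CD replicate 3 (Serpina7) and 1 without KI_MR replicate 2 (Adgrg2, interaction 1.20, adjusted p = 0.0451). Leaving out 1 array gave 7 to 94 genes for the diet response in KI, 17 to 199 for that in WT, 2 to 32 for the starting difference between KI_CD and WT_CD, 3 to 226 for the difference between KI_MR and WT_MR, 112 to 470 for the average diet response and 138 to 1945 for the average genotype difference. The interaction at an unadjusted p under 0.05 then held 615 to 1065 genes, with KI_MR apart in 85 to 246, KI_CD in 27 to 99, WT_MR in 58 to 220 and WT_CD in 51 to 171. Array weights gave 130 genes for KI diet, 2204 for WT diet, 168 for the starting difference, 4612 for KI_MR against WT_MR, 1369 for average diet, 4801 for average genotype and 2281 at an unadjusted interaction p under 0.05, with 245, 85, 461 and 201 for KI_MR, KI_CD, WT_MR and WT_CD apart. Gene-by-gene weights gave 126, 564, 138, 1514, 875, 3097 and 1491 for the same quantities, with KI_MR apart in 187 and WT_MR in 258. WT_MR replicate 1 had a weight of 16.74 in the first weighting, against 0.29 to 1.45 in the other arrays, and of 3.88 gene by gene. The WT_MR level in both weighted fits thus rested mainly on that array, and the higher counts with weights depend on it. Median centring gave 18 genes for KI diet (8 higher, 10 lower) and 58 for KI_MR against WT_MR (26 higher and 32 lower, against 52 and 42). The starting difference called 26 genes with a trended robust prior and 31 without the dimmest 25% of genes. Filters left KI_CD apart in 31 genes (without the dimmest 25%) and 24 (without the dimmest 50%), with 546 genes at an unadjusted interaction p under 0.05 in the second, which tests fewer genes. Same-numbered arrays of different groups correlated at -0.06 to 0.24 in their deviations from the group means, so the numbers were not taken to pair samples; the replicate block gave 0 interaction calls and 1065 genes at an unadjusted p under 0.05, 177 for KI_MR against WT_MR and 960 for average genotype. Of 94 named genes, the interaction changed sign for Per2 with array weights (-0.0100), for Asns with gene-by-gene weights (0.0328), for Aldh1l2 with quantile normalization (-0.0202), for Cyp4a12a with array weights (0.37), gene-by-gene weights (0.28) and quantile normalization (0.0175), and for Slco1a1 with both weightings (-0.18 and -0.0671). Leaving out 1 array changed the sign in 18 of 1128 values, those of Aldh1l2 (-0.17 to 0.19), Asns (-0.70 to 0.56), Cyp4a12a (-0.58 to 0.32), Cyp8b1 (-1.38 to 0.0504), Saa1 (-2.08 to 0.90) and Slco1a1 (-0.69 to 1.76). Other than through fewer arrays or genes, the cause was not tested. Values of 13.98% of all gene measurements lay under 32 units, where rounding to whole numbers is coarse.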
